A study of Homo sapiens with 4 samples.

Results

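The intermediate filament genes of glial cells were described here as 7 genes: *GFAP*, *NES*, *VIM* and *SYNM*, whose proteins form the filaments of the cytoplasm, and *LMNA*, *LMNB1* and *LMNB2*, whose proteins form the nuclear lamina. They were chosen by name, with earlier results of these data known, and each gene was found by its Entrez identifier. They were 7 of the 46660 gene identifiers in the data and held 52 of its 185042 linear RNAs, 17 of which belonged to *GFAP*. RNA-seq had been performed on U87MG and U251MG, established human glioblastoma cell lines, after knockdown of *FLI1*, which encodes an ETS family transcription factor. The 4 groups had 1 library each: U87MG and U251MG cells infected with the empty vector lentivirus pGreen, titled shControl, and the same cell lines infected with a lentivirus carrying a short hairpin RNA against *FLI1* (shFLI1). All 4 populations had been infected with polybrene, selected with puromycin and collected as mixed stable cells, so that none was a clone and the controls carried vector and selection too. Which *FLI1* hairpin was used is not given in the sources used here. By the treatment description the controls carried no hairpin, but their titles read shControl and the paper's supplement lists a negative control hairpin. Whether that hairpin was in these controls could not be settled.

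Intermediate filaments are built from coiled-coil proteins that pair, pack into tetramers and join end to end without polarity. Vimentin, from *VIM*, is the filament protein of mesenchymal and immature glial cells. Nestin, from *NES*, and synemin, from *SYNM*, are long-tailed partners that join a vimentin network. Glial fibrillary acidic protein, from *GFAP*, is the filament protein of mature and reactive astrocytes and a standard marker of astrocytic tumors. The lamins line the inner nuclear membrane: *LMNA* gives lamin A and lamin C by splicing, and *LMNB1* and *LMNB2* give the B-type lamins.

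*GFAP* RNAs differ mainly at the 3' end of the coding sequence, and 2 of these ends are printed. They do not tell all RNAs compared below apart, since the delta form and a longer form share the alternative exon. The RNAs were matched to GENCODE transcripts by length. In GRCh38, on the minus strand, the last exon shared by the forms ends at chr17:44910615-44910658. The delta form continues into an alternative exon, of which chr17:44910141-44910260 is printed. The kappa form reads on into the intron, of which chr17:44910472-44910614 is printed. The GENCODE transcripts matched to these forms by length run further, to chr17:44909672 and chr17:44909687. A longer form holds the alternative exon and then the alpha tail. In each line the lower case letters are the upstream exon and the capitals are the sequence that follows it.
GFAP alternative exon junction: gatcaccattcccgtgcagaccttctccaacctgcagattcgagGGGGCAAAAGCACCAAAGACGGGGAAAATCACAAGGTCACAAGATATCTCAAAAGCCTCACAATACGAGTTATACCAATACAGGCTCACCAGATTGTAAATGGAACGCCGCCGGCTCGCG
GFAP kappa read-through: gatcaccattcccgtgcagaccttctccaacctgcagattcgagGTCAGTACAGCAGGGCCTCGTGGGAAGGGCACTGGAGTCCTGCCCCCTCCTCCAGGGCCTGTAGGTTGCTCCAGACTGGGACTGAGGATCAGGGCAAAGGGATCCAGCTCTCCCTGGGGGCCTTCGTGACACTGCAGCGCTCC

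Depth ranged from 12229779 to 28891055 estimated counts over the linear RNAs, and the shFLI1 library was 1.74 times as deep as its control in U87MG and 1.60 times in U251MG. Levels were therefore given as CPM, counts relative to library size with the sizes scaled by the trimmed mean of M values (TMM). Levels of different genes were compared by FPKM, which is per length, except that sums over marker lists were taken on CPM. With 1 library per arm no test existed within a cell line; each log2 fold change carries a 95% interval that covers counting error only, and a gene past 2-fold was counted as called. *FLI1* had 107 counts in the U87MG control and 52 in U87MG shFLI1, and 216 counts in the U251MG control and 111 in U251MG shFLI1. On TMM-scaled CPM 25.0% of the control level was left in U87MG and 30.6% in U251MG, so that *FLI1* was lower in both libraries labelled shFLI1. The cell lines served as the only replicates of the knockdown in a shared test, edgeR's quasi-likelihood test blocked by cell line. It left 1 residual degree of freedom, with Benjamini-Hochberg adjustment over 16649 genes. The spread of each gene was moderated by that of the other genes tested, so its P does not measure the spread of that gene alone.

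*GFAP* was higher after *FLI1* knockdown in both cell lines, from control levels that were far apart. It had 634 CPM in the U87MG control, 1587 in U87MG shFLI1, 20.4 in the U251MG control and 93.8 in U251MG shFLI1, from 7264, 35305, 364 and 2808 counts. Both U87MG libraries lay above both U251MG libraries, and in each cell line the shFLI1 library lay above its control. The log2 fold change was 1.32 (95% counting interval 1.29 to 1.36) in U87MG, which is 2.50-fold, and 2.19 (2.04 to 2.36) in U251MG, which is 4.58-fold. *GFAP* was the single member past 2-fold in U87MG, where 14.5% of the 17355 genes that reached 10 counts in either library were past it, 10.0% upwards and 4.45% downwards. It was again the single member past 2-fold in U251MG, where 9.76% of 18222 genes were, 5.57% upwards and 4.19% downwards. In both cell lines together 1.19% of 16384 genes were past 2-fold upwards and 1.45% downwards. When 100 counts in either library were required, *GFAP* ranked 125 of 11380 by rise in U87MG and 8 of 12129 in U251MG. At the minimum of 10 counts it ranked 1064 of 17355, with 6.13% of genes higher, and 235 of 18222, with 1.28% higher.

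Across the cell lines the shared log2 fold change of *GFAP* was 1.73, with an adjusted P of 0.0076 in edgeR's quasi-likelihood test. By this test 3.08% of the genes were called, 0.931% upwards and 2.14% downwards, and *GFAP* was the 1 member of 7 that passed. The call ended without the cell line block (log2 fold change 1.34, adjusted P = 0.9999 in edgeR) and with limma on FPKM (1.81, adjusted P = 0.0789), settings under which the number passing among the 16649 genes was 0 (at an unadjusted P below 0.05 it was 725 and 2155). In bulk RNA, more *GFAP* per cell and more cells with *GFAP* cannot be told apart.

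The other 6 members moved less, as the plot of their fold changes shows. Nestin RNA was higher after knockdown in both cell lines. *NES* had 199 CPM in the U87MG control, 283 in U87MG shFLI1, 393 in the U251MG control and 637 in U251MG shFLI1. All 4 values were apart, with U251MG above U87MG and each shFLI1 library above its control, the reverse of *GFAP* between the cell lines. The log2 fold change was 0.51 (0.44 to 0.58) in U87MG and 0.70 (0.66 to 0.74) in U251MG, and the shared value of 0.59 did not pass edgeR's test (adjusted P = 0.106). With every gene of at least 1 count in any library tested, it passed (adjusted P = 0.0105), and over all settings of the shared test its adjusted P ran from 0.0105 to 0.9999.

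**Figure D1:**
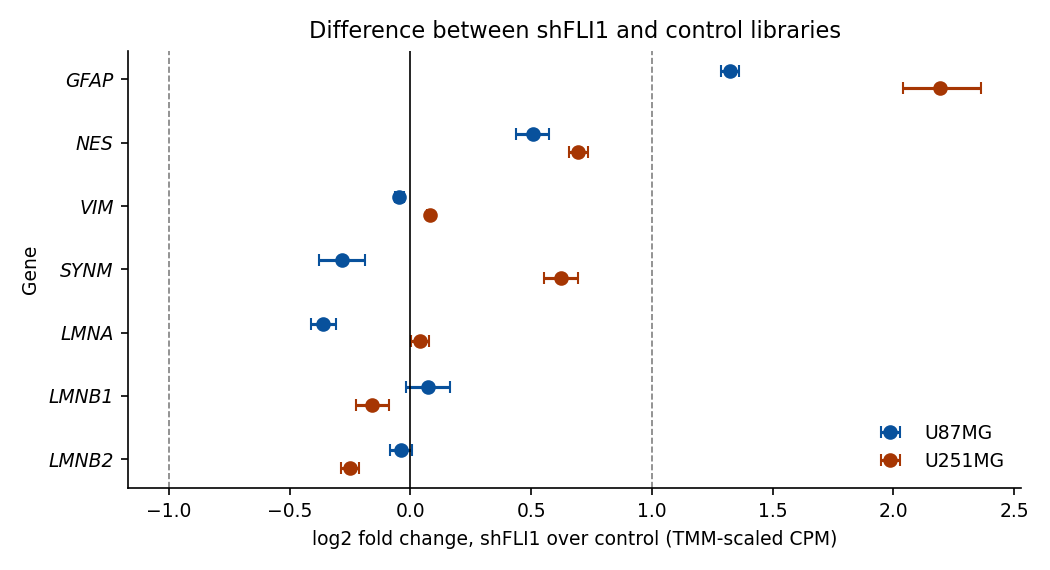
Log2 fold change of each of the 7 genes, shFLI1 over control, on TMM-scaled CPM in U87MG (blue) and U251MG (brown); bars are 95% intervals for counting error only, with 1 library per arm, and dashed lines mark 2-fold. *GFAP* lies past 2-fold in both cell lines (1.32 and 2.19), *NES* at 0.51 and 0.70, and the other 5 genes between -0.36 and 0.62.

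*VIM* was the most abundant member and hardly differed between arms. It had 3084 CPM in the U87MG control, 2986 in U87MG shFLI1, 6630 in the U251MG control and 7005 in U251MG shFLI1. The libraries fell by cell line, with U251MG above U87MG. The log2 fold change was -0.05 (-0.07 to -0.03) in U87MG and 0.08 (0.07 to 0.09) in U251MG, beside medians over all genes of 0.06 and 0.04. The shared value was 0.001 (adjusted P = 0.999 in edgeR). The sign in U87MG depended on the scaling, since total counts gave 0.11 where TMM gave -0.05; total counts moved the median of all U87MG genes from 0.06 to 0.22.

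Synemin RNA was lower after knockdown in U87MG and higher in U251MG, with a difference in U87MG that depended on the scaling. *SYNM* had 125 CPM in the U87MG control, 103 in U87MG shFLI1, 122 in the U251MG control and 188 in U251MG shFLI1. The control libraries were close, at a difference of -0.04 (-0.13 to 0.06) on the log2 scale, and U251MG shFLI1 stood above the other 3. The log2 fold change was -0.28 (-0.38 to -0.19) in U87MG and 0.62 (0.55 to 0.70) in U251MG; the shared value of 0.16 did not pass (adjusted P = 0.768 in edgeR). In U87MG total counts gave -0.12 and FPKM with a pseudocount of 1 gave -0.014, while in U251MG they gave 0.70 and 0.72. The FPKM sum in U87MG shFLI1 held 1.17 FPKM, or 7.05%, from 1 count of the RNA URS00008BA02C, which had 0 in the control. The value of -0.014 thus rests in part on 1 count.

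Among the lamins, *LMNA* had 456 CPM in the U87MG control, 355 in U87MG shFLI1, 511 in the U251MG control and 525 in U251MG shFLI1. U87MG shFLI1 was the low library of the 4, with a log2 fold change of -0.36 (-0.41 to -0.31), against 0.04 (0.002 to 0.08) in U251MG. *LMNB1* had 129, 135, 162 and 145 CPM in the same order of libraries, with log2 fold changes of 0.07 (-0.02 to 0.16) and -0.16 (-0.23 to -0.09). Its U87MG interval held 0. *LMNB2* had 534, 520, 519 and 436 CPM, with -0.04 (-0.08 to 0.01) in U87MG and -0.25 (-0.29 to -0.21) in U251MG. U251MG shFLI1 was its low library. In edgeR's test the shared log2 fold changes were -0.18 for *LMNA* (adjusted P = 0.693), -0.06 for *LMNB1* (0.887) and -0.16 for *LMNB2* (0.706).

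The control libraries answered how far the cell lines differed before knockdown. *GFAP* was 30.9-fold lower in the U251MG control than in the U87MG control, a log2 difference of -4.95 (-5.11 to -4.81). *VIM* was 2.15-fold higher in U251MG (1.10, 1.09 to 1.12), and *NES* was 1.97-fold higher (0.98, 0.91 to 1.05). *GFAP* and *VIM* were past 2-fold, as were 16.8% of 16391 genes, 11.0% higher and 5.77% lower in U251MG, and *NES* lay just inside. The differences of the remaining members lay between -0.04 and 0.33. *GFAP* in U251MG shFLI1, at 93.8 CPM, remained below the 634 CPM of the U87MG control.

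By FPKM, *VIM* ranked above the other members in all 4 libraries. *GFAP* had 228 FPKM in the U87MG control, 656 in U87MG shFLI1, 9.04 in the U251MG control and 42.1 in U251MG shFLI1. It stood next to *VIM* in both U87MG libraries, was the lowest of the 7 in the U251MG control, and stood above *SYNM* alone in U251MG shFLI1. The order in U87MG shFLI1 was *VIM*, *GFAP*, *LMNA*, *LMNB2*, *NES*, *LMNB1* and *SYNM*, where the counting intervals of *NES* (55.7 FPKM) and *LMNB1* (53.9 FPKM) overlapped. In U251MG shFLI1 *NES*, at 124 FPKM, stood above *LMNB2*, at 104 FPKM, the reverse of their order in the other 3 libraries. Apart from *NES* and *LMNB1* in U87MG shFLI1, no neighbors had overlapping intervals in any library. These intervals use the total count of a gene and miss RNAs with few counts and high FPKM. In the U87MG control 12.2 of the 126 FPKM of *LMNB2* came from 1 count of URS0001BD9231. There 12 RNAs with few counts held 6.75% of *GFAP* FPKM, and *LMNA* followed *GFAP* at 214 FPKM, so the order of these genes is not firm.

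**Figure D2:**
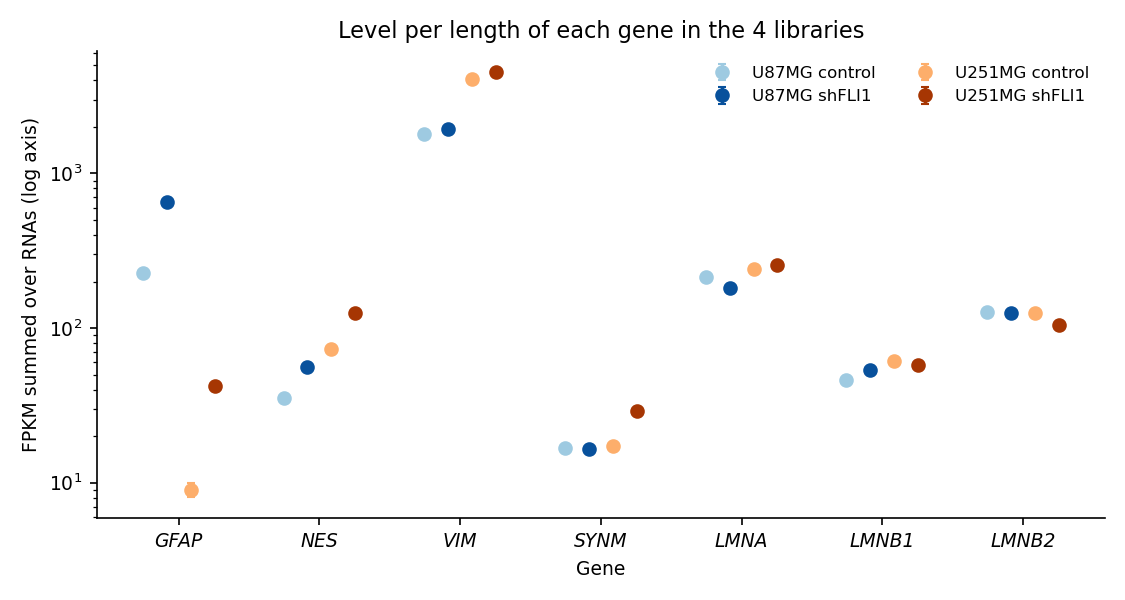
FPKM of each gene, summed over its RNAs, on a log axis in the U87MG control, U87MG shFLI1, U251MG control and U251MG shFLI1 libraries. Bars, mostly hidden by the points, are 95% intervals for the counting error of the gene's total count only. *GFAP* spans 9.04 to 656 FPKM, while *VIM* lies between 1789 and 4514 FPKM.

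Of the summed FPKM of the 4 cytoplasmic filament genes, *GFAP* made up 11.0% in the U87MG control and 24.7% in U87MG shFLI1. In U251MG the share was 0.217% in the control and 0.893% after knockdown. *VIM* made up 86.5% and 72.6% in the U87MG control and shFLI1 libraries, and 97.6% and 95.8% in U251MG. *VIM* RNA was thus 7.84 times *GFAP* RNA per length in the U87MG control and 2.94 times in U87MG shFLI1, and 449 and 107 times in the U251MG pair. *VIM* held over 95% of the pool in both U251MG libraries. Among the lamin genes, A-type over B-type FPKM was 1.24 in the U87MG control and 1.02 in U87MG shFLI1, and 1.29 and 1.58 in the U251MG pair. That ratio was lower in the shFLI1 library in U87MG and higher in U251MG, and neither difference has a replicate check. *LMNB2* included 12.2 FPKM in the U87MG control and 8.33 in the U251MG control from 1 count of URS0001BD9231, which had 0 after knockdown.

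**Figure D3:**
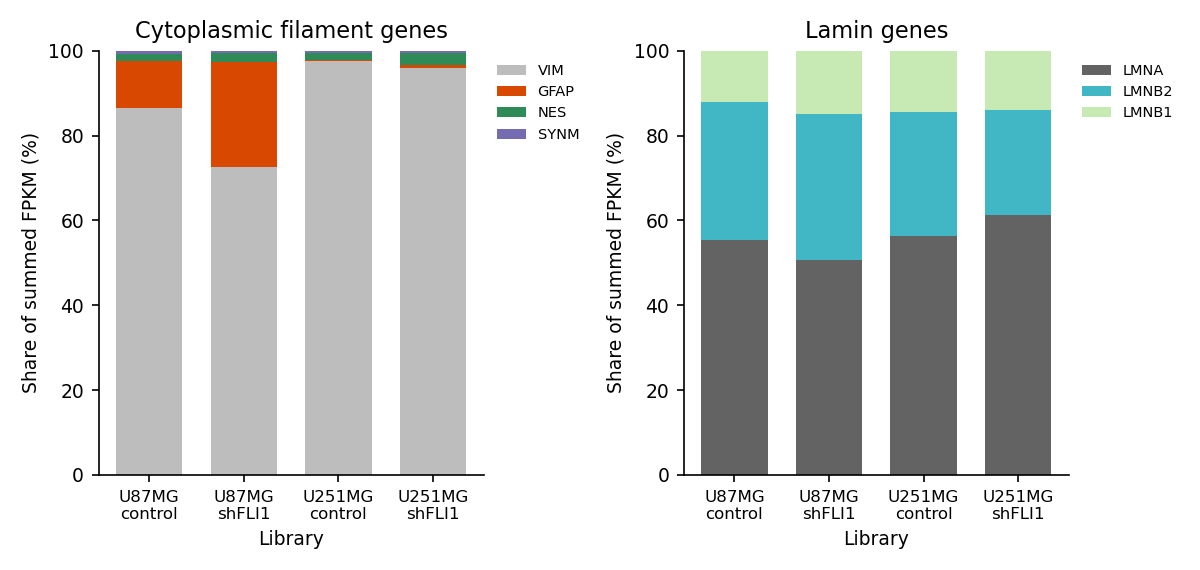
Share of summed FPKM, in percent, taken by each cytoplasmic filament gene (left) and by each lamin gene (right) in the 4 libraries. The *GFAP* share is 11.0% and 24.7% in the U87MG control and shFLI1 libraries and below 1% in both U251MG libraries.

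The 17 *GFAP* RNAs were 5 RefSeq transcripts and 12 RNAcentral entries. Their estimated counts can be moved between RNAs that share exons by the counting tool, so the sum over the gene is firmer than any of its parts. The model transcript XM_024450692 had 3697 counts in the U87MG control, 17596 in U87MG shFLI1, 199 in the U251MG control and 1411 in U251MG shFLI1. It made up 50.9%, 49.8%, 54.7% and 50.2% of the *GFAP* counts of these libraries, the largest share in each. Its log2 fold change was 1.29 (1.24 to 1.34) in U87MG and 2.08 (1.86 to 2.30) in U251MG, and it carried 49.1% and 49.0% of the gene's CPM rise. The length implied by its counts and FPKM, 3289 bases, matched no *GFAP* transcript of GENCODE, and its exons are not described here.

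NM_001363846, whose implied length of 3156 bases matched a GENCODE transcript of 3154 bases that holds the alternative exon followed by the alpha tail, had 2805, 14075, 85.5 and 999 counts in the same order of libraries. Its log2 fold change was 1.37 (1.31 to 1.43) in U87MG and 2.80 (2.47 to 3.12) in U251MG, and it carried 40.7% and 38.9% of the rise. Its share of *GFAP* counts was 38.6% (95% Clopper-Pearson interval 37.5 to 39.7) and 39.9% (39.4 to 40.4) in the U87MG control and shFLI1 libraries. In U251MG the share was 23.5% (19.4 to 28.3) in the control and 35.6% (33.8 to 37.4) after knockdown, intervals that do not overlap. Together XM_024450692 and NM_001363846 carried 89.8% of the CPM rise in U87MG and 87.9% in U251MG. On FPKM, which weighs shorter RNAs more, XM_024450692 carried 40.4% and 37.9% and NM_001363846 34.8% and 31.3%.

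The other 3 RefSeq transcripts, delta, kappa and alpha, together carried 8.31% of the CPM rise in U87MG and 10.9% in U251MG. The delta form NM_001131019, which ends in the alternative exon, had 533, 2253, 52.9 and 300 counts in the same order, with log2 fold changes of 1.12 (0.98 to 1.26) and 1.75 (1.33 to 2.20). It carried 5.75% of the rise in U87MG and 9.60% in U251MG. Its share was 14.5% (11.1 to 18.6) in the U251MG control and 10.7% (9.56 to 11.9) in U251MG shFLI1, intervals that overlap. The kappa form NM_001242376 had 81.2, 441, 10.3 and 34.9 counts, with 1.49 (1.14 to 1.85) and 1.02 (0.01 to 2.24). The alpha form NM_002055, which is the canonical transcript with a long 3' end, had 98.5, 450, 8.39 and 25.8 counts, with 1.23 (0.91 to 1.56) in U87MG and 0.87 (-0.23 to 2.31) in U251MG. It made up 1.36%, 1.28%, 2.31% and 0.917% of the *GFAP* counts. NM_001363846 holds the alpha tail too, and how reads of that tail were assigned between the transcripts was not tested.

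The 12 RNAcentral entries held 0.691%, 1.38%, 2.16% and 1.35% of the *GFAP* counts and carried 1.85% of the rise in U87MG and 1.13% in U251MG. By FPKM, which weighs short RNAs more, they held 6.75%, 10.8%, 16.0% and 14.9% of *GFAP* in the same order. URS00009BBABB had 39.4, 303, 7.88 and 22.8 counts, with a log2 fold change of 1.99 (1.52 to 2.52) in U87MG and 0.78 (-0.44 to 2.15) in U251MG. URS0000D6DF40 had 92.7 counts in U87MG shFLI1 and 0 in the other 3 libraries, which is at least 15.9-fold higher than the U87MG control against a floor of 3 counts per library. URS00008B5F29 had 44.6 counts in U87MG shFLI1 and 0 elsewhere, at least 7.65-fold higher on the same floor. URS000048F5DD and URS00009C2945 had the same counts, 2.39, 13.4, 0 and 1.53, and URS00008C20D3 had 1, 10.0, 0 and 2. URS00009B42F0 had 4.03, 4.10, 0 and 4.48 counts, the sole RNA with over 3 counts in both U87MG libraries that was lower in CPM after knockdown (-0.93, -3.38 to 1.47). URS0000EC04D4 had 4.19 counts in U87MG shFLI1 and 0 elsewhere, and URS0001BCC243 had 2.45 in U87MG shFLI1 and 3.74 in U251MG shFLI1. URS0001BF88ED had 1 count in U87MG shFLI1, and URS0001BED918 and URS00008B916D each had 0.5 in the U87MG control and 1 in U251MG shFLI1. Over the 17 RNAs, 14 were higher and 3 lower in CPM after knockdown in U87MG, and 13 were higher and 4 at 0 in both libraries in U251MG. Of those with over 3 counts in both libraries, 6 of 7 were past 2-fold upwards in U87MG and 4 of 6 in U251MG. These RNAs split the counts of 1 gene, so they repeat its rise and are not separate results. The share of all linear RNAs past 2-fold on this floor was not computed.

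**Figure D4:**
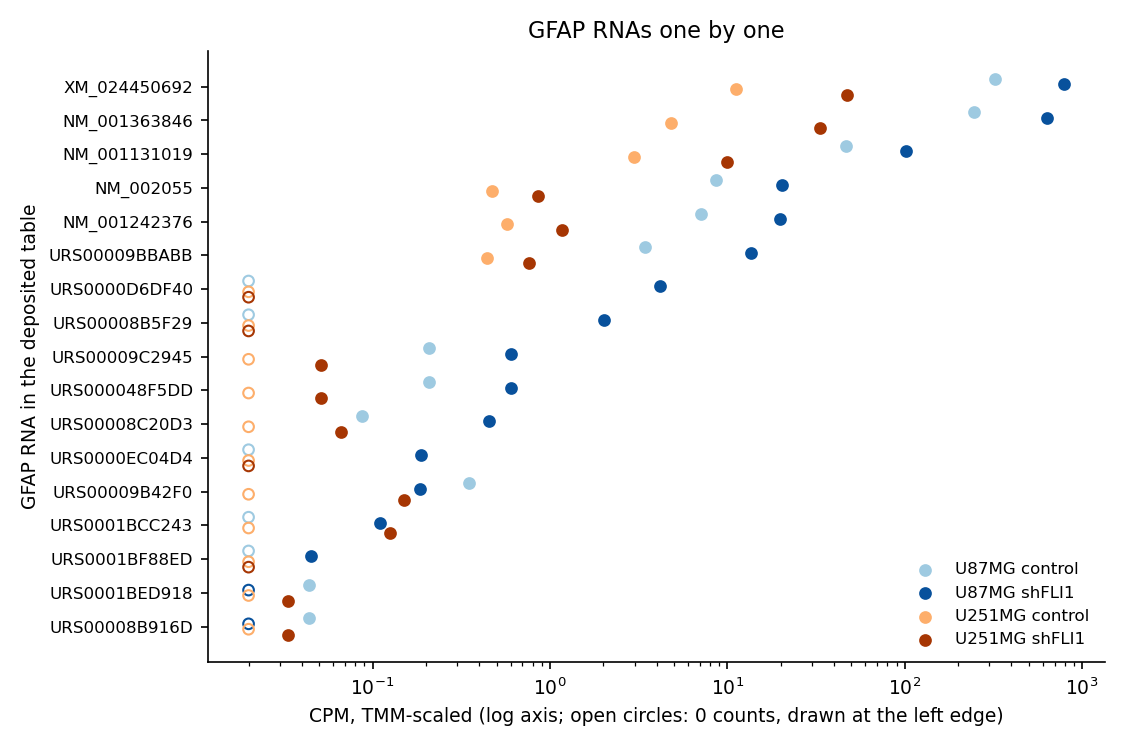
TMM-scaled CPM of each of the 17 *GFAP* RNAs in the 4 libraries on a log axis; open circles at the left edge are RNAs with 0 counts. The top 2 RNAs lie above the rest in every library, and together hold 78.2% to 89.7% of the *GFAP* counts.

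Splicing of *LMNA*, whose lamin A and lamin C forms differ at the 3' end of the coding sequence, was read in the same way. The lamin C transcript NM_005572 had 3688, 5338, 5501 and 8823 counts in the U87MG control, U87MG shFLI1, U251MG control and U251MG shFLI1 libraries, and the lamin A transcript NM_170707 had 1510, 2523, 3561 and 6727. Lamin A made up 29.0% (95% Clopper-Pearson interval 27.8 to 30.3) of their joint counts in the U87MG control and 32.1% (31.1 to 33.1) in U87MG shFLI1. In U251MG it made up 39.3% (38.3 to 40.3) in the control and 43.3% (42.5 to 44.0) after knockdown. The share was higher in shFLI1 than in control in both cell lines, by less than it differed between the cell lines, and the intervals cover counting error only. The log2 fold change of lamin C was -0.42 in U87MG and -0.07 in U251MG, and that of lamin A -0.22 and 0.17. Per length, lamin A was 19.9%, 22.3%, 28.2% and 31.6% of the FPKM of the pair.

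For *SYNM*, the long transcript NM_145728 had 1323, 2021, 1948 and 5039 counts and the shorter NM_015286 had 106, 259, 217 and 563. The long form made up 92.6% (91.1 to 93.9) of the counts of the pair in the U87MG control, 88.7% (87.3 to 89.9) in U87MG shFLI1, 90.0% in the U251MG control and 89.9% in U251MG shFLI1. In U87MG the long form had a log2 fold change of -0.35 (-0.45 to -0.25) and the short form 0.33 (-0.0005 to 0.67); in U251MG they had 0.62 and 0.63. On TMM-scaled CPM the long form was thus the one with opposite signs, while the interval of the short form in U87MG held 0. For *VIM*, the model transcript XM_006717500 held 99.7% to 99.9% of the counts in each library. NM_003380, with a longer implied length of 2152 bases, had 6.67, 53.8, 13.3 and 73.2 counts. URS00009B0044 (16.2 to 125 counts) and URS0001BF13F0 (19.1 to 113 counts) were the remaining *VIM* RNAs that reached 100 counts in a library. *NES* had 1 RNA, NM_006617, and *LMNB1* and *LMNB2* were each carried almost wholly by NM_005573 and NM_032737, at 98.4% or more of their counts.

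Genes around the filaments were taken from lists by role. Of 17 other intermediate filament genes, 16 were matched, and of 9 tested in U87MG 0 were past 2-fold upwards and 2 downwards. In U251MG 0 of 11 were past it upwards and 3 downwards. Over all genes tested 10.0% were past it upwards and 4.45% downwards in U87MG, and 5.57% and 4.19% in U251MG. The median log2 fold changes were -0.68 and -0.35, beside 0.06 and 0.04 over all genes. *KRT80*, a type II epithelial keratin, fell in the shared test, from 271 to 172 CPM in U87MG and from 180 to 90.3 CPM in U251MG (log2 fold changes -0.66 and -0.99, adjusted P = 0.0245 in edgeR). It was the 1 of 9 tested that passed, and with scaling to total counts its adjusted P in edgeR was 0.0694 and 0 of the 9 passed. *KRT8* and *KRT18*, which pair in simple epithelia, had -1.31 and -0.35, and -0.68 and -0.56, and did not pass (adjusted P = 0.10 and 0.0521 in edgeR); with *KRT19*, at 9 to 62 counts, *KRT8* made up those past 2-fold downwards in U87MG. In U251MG these were *PRPH*, *NEFM* and *KRT7*, each at under 55 counts in every library. *NEFL*, the neurofilament light chain, had 4566, 5691, 5578 and 8183 counts and log2 fold changes of -0.64 and -0.20.

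Of 8 linker and chaperone genes, 1 rose in the shared test and 0 fell. *DST*, which encodes the dystonin cross-linkers of filaments, went from 476 to 857 CPM in U87MG and from 416 to 950 CPM in U251MG (0.85 and 1.19, adjusted P = 0.0264 in edgeR). In U87MG *EPPK1* and *HSPB1* were past 2-fold downwards, at -2.08 and -1.24. In U251MG *DST* was past 2-fold upwards and *DSP* downwards, at -1.04. The medians were -0.20 in U87MG and 0.38 in U251MG.

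Of 13 partners of the lamina, *SYNE2*, whose nesprin links the nuclear envelope to the cytoskeleton, rose in the shared test (0.57 and 0.94, adjusted P = 0.0398 in edgeR) and 0 fell. With TMM computed before the filter its adjusted P in edgeR was 0.0549 and 0 of the 13 passed. *SYNE3*, at under 100 counts in every library, was the 1 gene past 2-fold downwards in each cell line (-1.42 and -1.16, adjusted P = 0.0519 in edgeR). Of 8 kinases that phosphorylate filament proteins, 0 passed edgeR's shared test, with 2 at an unadjusted P below 0.05, and 0 passed DESeq2. Over all genes 2753 of 16649 had an unadjusted P below 0.05 in edgeR, so such counts in a list are no result about that list. Of 5 enzymes of lamin processing, 0 passed by either tool and 0 had an unadjusted P below 0.05. Of 16 regulators of *GFAP* or *NES*, 15 were tested in the shared test and 0 passed by edgeR or DESeq2, with 3 at an unadjusted P below 0.05 in edgeR. These were *IL6ST*, the shared receptor subunit of the interleukin 6 family (0.48 and 0.39), *SOX2*, a transcription factor of neural stem cells (0.43 and 0.31), and *NFIA*, a gliogenic transcription factor (0.34 and 0.41), each higher in both cell lines and not past the adjusted threshold (adjusted P = 0.181, 0.245 and 0.242 in edgeR). None of the regulators tested was past 2-fold in either cell line. *STAT3*, which carries cytokine signals to the *GFAP* gene, had 0.36 and 0.11, and *SOX9*, a glial transcription factor, -0.16 and -0.04.

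**Figure D5:**
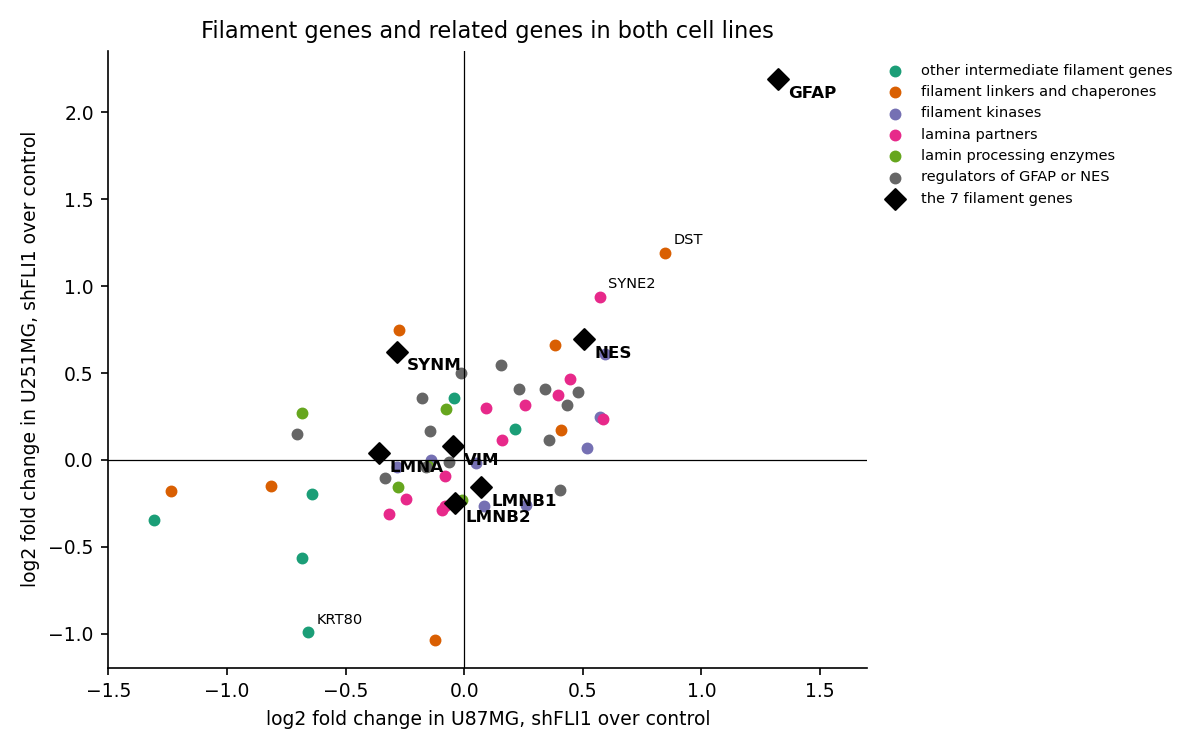
Log2 fold change, shFLI1 over control, in U87MG (horizontal axis) and U251MG (vertical axis) for the 7 filament genes (black diamonds). Circles, colored by list, are genes of the lists by role with at least 100 counts in 1 library. Genes of the cell type marker lists are not drawn, among them *FABP7* and *CD68*, which passed the shared test. *GFAP* stands apart from the genes drawn, at 1.32 and 2.19, and *DST*, *SYNE2* and *KRT80*, which passed the shared test, are named.

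Of 10 other markers of astrocytes, 7 were tested and 1 passed the shared test: *FABP7*, the radial glial fatty acid binding protein, which had 91, 468, 50 and 197 counts and rose (1.39 and 1.20, adjusted P = 0.0165 in edgeR). *AQP4*, *S100B* and *SLC1A2*, defining markers of mature astrocytes, were at 0 to 11 counts in every library. *SLC1A3* went the other way in both cell lines, at -0.26 in U87MG and -1.49 in U251MG, there from 135 to 79 counts. *GLUL* (-0.35 and -0.68) and *ALDH1L1* (-0.29 and -0.51) were lower in both cell lines too. The counting intervals of *GLUL* in U87MG and of *ALDH1L1* in both held 0. These genes did not pass (adjusted P = 0.184 for *SLC1A3*, 0.124 for *GLUL* and 0.709 for *ALDH1L1* in edgeR). The summed level of the 10 markers was 231 and 242 CPM in the U87MG control and shFLI1 libraries and 296 and 265 CPM in the U251MG pair. *SOX9* made up most of these CPM sums, at 144, 128, 191 and 185 CPM. By FPKM, *FABP7* (39.7) stood above *SOX9* (36.5) in U87MG shFLI1 and below it in the other libraries. *GJA1*, the connexin of astrocyte gap junctions, had 0.54 and -0.02 and did not pass (adjusted P = 0.532 in edgeR), and *ALDOC* was at 4 to 19 counts.

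Levels of markers of other cell types differed by list, and the neuron and mesenchymal sums were not near 0. The sums were 0.349 to 0.801 CPM over 5 oligodendrocyte markers, 0 to 0.270 CPM over 2 matched epithelial markers and 0.841 to 5.68 CPM over 3 endothelial markers. The 3 matched myeloid markers summed to 4.54 and 0.674 CPM in U87MG and 9.87 and 1.94 CPM in U251MG, with *PTPRC* at 0 to 5 counts; *CD68*, a lysosomal protein gene, fell (-2.72 and -4.03, adjusted P = 0.0034 in edgeR). The 5 neuron markers summed to 304 and 214 CPM in U87MG and 372 and 399 CPM in U251MG, almost wholly *TUBB3*, with *RBFOX3* and *STMN2* at 0 to 2 counts. The 4 mesenchymal markers summed to 1609 and 1764 CPM in U87MG and 1112 and 1342 CPM in U251MG, almost wholly *CD44*. The part of these markers in the filament results was not tested.

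Likeness to *GFAP* was measured as the Euclidean distance between log2 CPM patterns over the 4 libraries, each centered on its mean, among 9691 genes with a symbol and at least 100 counts in every library. The nearest were *LZTS1* (distance 1.82), *PRSS35* (2.13), *COL14A1* (2.21), *HRCT1* (2.40) and *COL11A1* (2.43). All 5 were higher in the U87MG control than in the U251MG control. *PRSS35*, which encodes a serine protease-like protein, was the one of them that rose in the shared test (1.68 and 0.76, adjusted P = 0.0186 in edgeR). The 5 genes were chosen by their values in these same 4 libraries. Neither their difference between the controls nor the rise of *PRSS35* is thus separate support for likeness to *GFAP*. *COL14A1* and *COL11A1*, which encode collagen chains, were higher after knockdown in U87MG (0.97 and 1.40) and lower in U251MG (-0.75 and -1.24), unlike *GFAP*. The pattern is dominated by the difference between the cell lines, and 4 libraries are few for a measure of likeness.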

How the data were processed

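RNA-seq of 4 libraries was analysed. Per the study's methods, poly-A RNA libraries were sequenced and clean reads were aligned by the authors to GRCh38 (GRCh38.p13 per the labels) with HISAT2, and StringTie gave FPKM. The deposited table holds, for each RNA, an estimated count, not scaled to depth, whose tool and annotation are not given in the sources used here, and an FPKM value. Its TPM columns and its means over cell lines (10 columns) and its 31346 circular RNAs were not used. Whether reads were counted by strand is not given in the sources used here.

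Estimated counts of linear RNAs were summed by gene and rounded. Of 46660 gene identifiers, 24411 were Entrez identifiers and 23775 of these had a symbol in the reference table. Libraries were scaled by TMM (edgeR 4.0.16, R 4.3.3) to CPM, and log2 values used a prior count of 2. Fold changes within a cell line have 95% Clopper-Pearson intervals, which cover counting error only, since reads are not independent molecules. A gene that reached 10 counts in either library of a pair was counted as past 2-fold or not. The shared test was edgeR's quasi-likelihood test (filterByExpr, cell line as a block, Benjamini-Hochberg at 0.05). Its dispersion was moderated over the genes tested, so its P does not measure the spread of 1 gene between the 2 cell lines alone. DESeq2 1.42.0, limma 3.58.1 on log2(FPKM + 1), DESeq2 size factors, total counts, other filters, prior counts and thresholds were alternatives, and 2 were added after seeing the data (RefSeq RNAs only, and TMM before the filter). The scripts were tested on simulated data. FPKM of a gene is the sum over its RNAs; RNA lengths were derived from counts and FPKM and compared with GENCODE transcripts, and sequences were read from a GRCh38 genome.

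In the lists 1 gene was left out, and it and some sequences are not reported here. The members and lists were chosen with earlier results of these data known. Named were all members, every *GFAP* RNA, RNAs of the other members with at least 100 counts in 1 library, *FLI1*, list genes that passed the shared test or were past 2-fold alike in each cell line, if they reached 100 counts in some library (at most 4 per list), and the 5 genes nearest to *GFAP*. Any other gene or RNA was named after its values were seen. Figures were drawn with matplotlib 3.10.9.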

Additional observations from a re-analysis of the deposited data

Results flagged for a closer look

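On TMM-scaled CPM *VIM*, *SYNM* and *LMNA* had opposite signs in the 2 cell lines, with counting intervals off 0 on both sides. On the log2 scale *VIM* differed by -0.047 between the U87MG arms and by 0.079 between the U251MG arms, *SYNM* by -0.28 and 0.62, and *LMNA* by -0.36 and 0.039. The difference between the cell lines was not tested, because with 1 library per arm an interaction leaves no residual degrees of freedom. The *VIM* value in U87MG turned positive with total counts and with FPKM. *SYNM* in U87MG shrank to -0.12 with total counts and to -0.014 with FPKM at a pseudocount of 1, and *LMNA* to -0.20 and -0.23. The *SYNM* value on FPKM rests in part on 1 count of URS00008BA02C, at 1.17 FPKM in U87MG shFLI1.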

How the results depend on the processing

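The log2 fold change of *GFAP* in U87MG was 1.48 with total counts, 1.52 with FPKM at a pseudocount of 1 and 1.52 at 0.1, against 1.32; in U251MG it stayed within its counting interval of 2.04 to 2.36. A 1.5-fold threshold put 3 members past it in U251MG (*GFAP*, *NES* and *SYNM*), by construction of the threshold. The cell line block pairs each shFLI1 library with its control. Without the block the shared log2 fold change of *GFAP* was 1.34 (adjusted P = 0.9999 in edgeR), and limma on FPKM gave 1.81 (adjusted P = 0.0789). Members passing the shared test numbered 2 (*GFAP* and *NES*) when 1 count anywhere sufficed for testing, 0 with limma (2 before adjustment of P) and 0 without the block (0 before adjustment); the cause was not tested. Over the other settings the adjusted P of *GFAP* in edgeR ran from below 0.0001 to 0.0161. Leaving out a cell line gave 1.32 to 2.19 for *GFAP*, with no test.

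All genes passing the shared test numbered 512, against 405 with DESeq2, 365 with total counts, 1304 when 1 count anywhere sufficed, 0 with limma (2155 with an unadjusted P below 0.05) and 0 without the block (725). The list of other intermediate filament genes had 0 to 3 passing, linkers and chaperones 0 to 4, lamina partners 0 to 2, kinases 0 to 1, and the regulators and lamin processing enzymes 0 under every setting run. Of 126 fold changes of members within a pair under alternatives, 70 stayed in their counting interval; *VIM* and *LMNB2* in U87MG, and *SYNM* and *LMNB2* between the controls, changed sign under total counts. Low counts limit *FLI1* and the U251MG control values of *GFAP* RNAs.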
